A study of Mus musculus with 12 samples.

Results

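The 10 genes described here encode the proteins that sit between lipopolysaccharide (LPS) at the cell surface and the first shared step of Toll-like receptor 4 (TLR4) signaling in macrophages. They are the co-receptors Cd14 and Ly96, the adaptors Myd88, Tirap, Ticam1 and Ticam2, the kinases Irak1, Irak2 and Irak4, and the ubiquitin ligase Traf6. They were chosen by symbol, and all 10 were found among the 38215 genes of the count table. In the exon bin files, 8 of the 10 form a unit of their own, with 91 of the 354841 bins counted. Irak1 and Ticam2 are counted there together with overlapping genes.

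The cells were RAW264.7, a macrophage line of BALB/c mouse origin. They received a nontargeting control siRNA or SF3a1 siRNA for 24 h and were then left without LPS or exposed to 20 ng/ml LPS for 4 h, with 3 replicates in each of the 4 groups. SF3a1 is a subunit of the SF3a complex of the U2 snRNP, which recognizes the branch point during pre-mRNA splicing, and the study asked how its inhibition changes the innate immune response to LPS. Polyadenylated RNA was sequenced, and 12746019 to 41091887 reads per library fell on genes. The deepest library of each group was replicate 1, which combined 2 sequencing runs. For a splicing analysis that needs a fixed read length, the paper kept longer reads in replicate 1 than in replicates 2 and 3. The share of reads outside annotated genes ranged from 17.8 to 19.8% in the control siRNA libraries and from 18.2 to 27.2% in the SF3a1 siRNA libraries, where it was highest in replicate 1 without LPS. According to the paper, each siRNA treatment and LPS exposure was done in triplicate. The labels do not say that the replicates came from separately started cultures, so the p-values measure the spread between these samples, which may be partly technical.

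LPS is extracted from bacterial membranes and handed by CD14 to MD-2, the product of Ly96, which forms the ligand-binding complex with TLR4. The activated receptor recruits TIRAP and MyD88 at the plasma membrane, and MyD88 assembles IRAK4 with IRAK1 and IRAK2, which activate TRAF6 and, through it, NF-κB and MAP kinases. After endocytosis the receptor uses TRAM, the product of Ticam2, and TRIF, the product of Ticam1, to induce type I interferon. Several components are themselves induced by LPS in macrophages, and MyD88 and IRAK1 have alternatively spliced forms with altered signaling activity.

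The knockdown was visible in every SF3a1 siRNA library. Sf3a1 measured 173, 216 and 185 CPM (reads of a gene scaled to library size by the trimmed mean of M-values) with control siRNA without LPS, and 27.1, 27.5 and 32.1 CPM with SF3a1 siRNA. With LPS it measured 150.02, 194 and 157 CPM with control siRNA and 30.3, 26.7 and 45.05 CPM with SF3a1 siRNA. The groups did not overlap, and the log2 fold change was -2.73 ± 0.20 (SE, n = 3 per group, adjusted p = 1.14e-05) without LPS and -2.30 ± 0.20 (adjusted p = 1.47e-05) with LPS. Of 10 macrophage markers, Lyz2, a lysozyme of macrophages, was the most abundant at a mean of 6689 CPM. Mertk was nearly absent, at a mean of 0.878 CPM and at most 2.60 CPM in any library. The others averaged at least the 134 CPM of Adgre1, and the macrophage label rests on these and Lyz2. The 10 markers summed to 10516 to 16911 CPM per library. That sum was 11128 ± 587 and 11931 ± 539 CPM (SD, n = 3) in control cells without and with LPS, and 15006 ± 816 and 14786 ± 1990 CPM in SF3a1 siRNA cells. Markers of B cells, neutrophils and fibroblasts summed to at most 0.763, 1.39 and 0.342 CPM in any library.

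Some markers of other cell types moved with the groups. The 6 T cell markers had a summed level of 2.27 ± 0.438 CPM (SD, n = 3) in control cells, 12.2 ± 1.95 CPM in control cells given LPS, and 2.81 ± 0.419 and 4.84 ± 1.52 CPM in SF3a1 siRNA cells without and with LPS. Lck, a Src family kinase, carried almost all of this sum (mean 5.47 CPM), Cd8a had 0 counts in every library, and Cd3e, Cd3d, Cd3g and Cd4 reached at most 0.0963 CPM in any library. The 5 dendritic cell markers summed to 10.9 ± 4.40 and 56.3 ± 12.9 CPM without and with LPS under control siRNA, and to 23.1 ± 13.5 and 41.1 ± 11.9 CPM under SF3a1 siRNA. Itgax, an integrin also made by activated macrophages, dominated that sum (mean 30.5 CPM), and Flt3 did not exceed 0.402 CPM. The part of these markers in the results below was not tested. In such bulk RNA, fewer cells of a kind and less RNA per cell cannot be told apart.

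Per kilobase of annotated exon, the level of the 10 genes was compared within each group. In control cells without LPS, Cd14 was highest at 331 ± 65.4 CPM per kb (SD, n = 3), followed by Myd88 at 51.2 ± 7.95 and Irak1 at 38.5 ± 5.48, and none of these overlapped its neighbour. Ticam1 (10.5 ± 3.798), Irak2 (10.3 ± 1.81), Ly96 (6.96 ± 3.11) and Tirap (6.72 ± 0.593 CPM per kb) formed a run in which each overlapped its neighbour. Irak4 (4.58 ± 0.172) and Traf6 (4.41 ± 0.0450) also overlapped each other, and Ticam2 was lowest at 3.09 ± 0.0944 CPM per kb. With LPS, Irak2 moved above Irak1 at 47.0 ± 3.79 against 31.4 ± 1.32 CPM per kb, without overlap. Cd14, Myd88 and Ticam2 kept the first, second and last places in all 4 groups. The length used for Ticam2 includes bases whose reads are left out of its count, as given below. Its last place therefore holds only for that length.

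**Figure D1:**
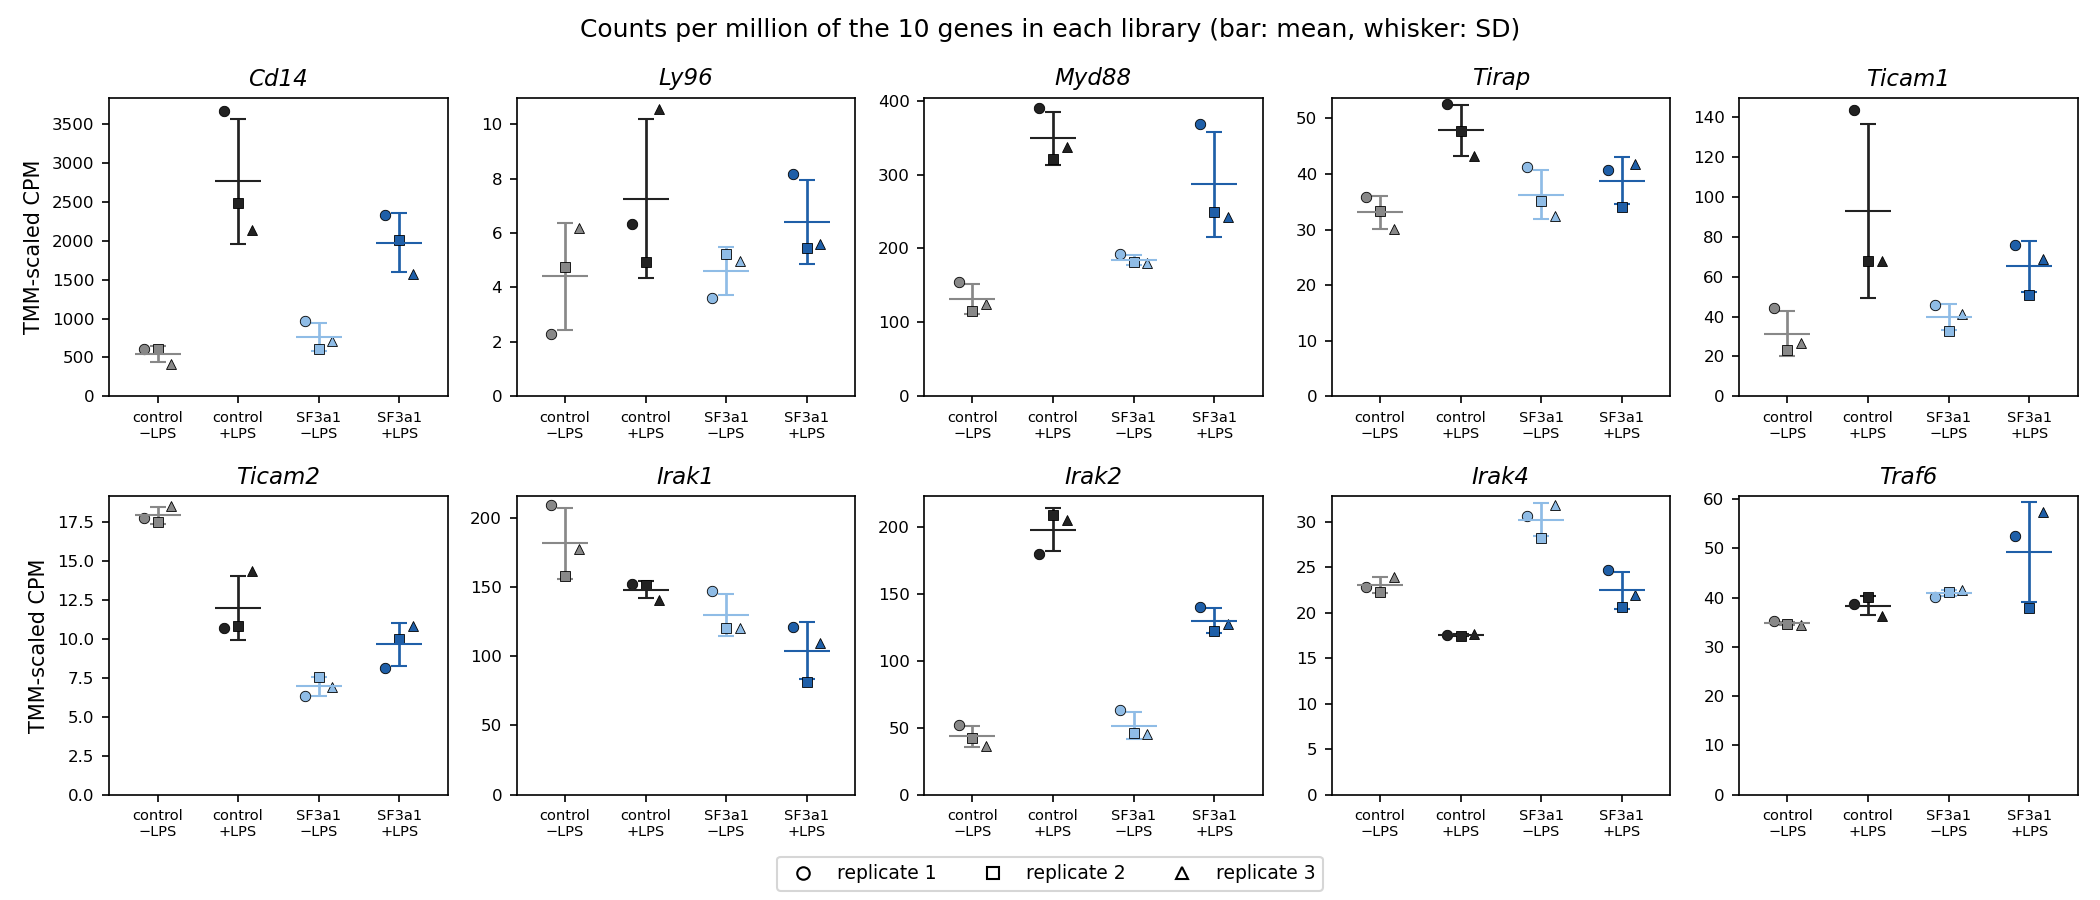
CPM of each gene (vertical axis, TMM-scaled, linear from 0) in each library of the 4 groups, with symbols for replicates 1 to 3, a bar for the mean and whiskers for the SD. Irak2 with LPS sits between 179.6 and 209 CPM with control siRNA and between 122 and 140.0 CPM with SF3a1 siRNA, and Ticam2 is lowest with SF3a1 siRNA without LPS (6.34 to 7.52 CPM).

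All 10 genes passed the filter on low counts and were tested among 14983 genes, with a gene called where edgeR's quasi-likelihood test gave a Benjamini-Hochberg adjusted p up to 0.1. LPS with control siRNA changed 7 of the 10, with 5 higher and 2 lower, where 32.1% of all tested genes were called (13.8% higher and 18.3% lower). LPS with SF3a1 siRNA changed 4, with 3 higher and 1 lower, where 10.7% of all genes were called (6.60% higher and 4.06% lower). SF3a1 siRNA changed 4 without LPS, 2 higher and 2 lower, where 33.8% of all genes were called (13.7% higher and 20.1% lower). With LPS it also changed 4, 2 higher and 2 lower, where the background was 38.8% (18.4% higher and 20.4% lower). The shares under SF3a1 siRNA are near the background, so the counts are no result about these genes as a group. The interaction, the SF3a1 effect with LPS minus that without, was called for 2 genes against 3.47% of all genes (1.54% higher and 1.94% lower).

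The median log2 fold change of the 10 genes was 0.63 for LPS with control siRNA and 0.48 for LPS with SF3a1 siRNA, beside -0.02 and 0.01 over all tested genes. For SF3a1 siRNA it was 0.24 without LPS and -0.31 with LPS, beside -0.02 and -0.04 over all. Same-numbered replicates deviated together, so the fit was repeated with the replicate number as a block. It called 9 of the 10 genes for LPS with control siRNA (6 higher and 3 lower, background 43.9%). For SF3a1 siRNA without LPS it called 6 (4 higher and 2 lower, background 47.1%). The block called 7 of the 10 for LPS with SF3a1 siRNA (5 higher and 2 lower, background 20.8%). It called 8 for SF3a1 siRNA with LPS (2 higher and 6 lower, background 50.9%) and 5 for the interaction (1 higher and 4 lower, background 11.7%). The libraries of the groups did not overlap for 9 of the 10 genes in LPS with control siRNA (40.2% of all tested genes) and for 7 in LPS with SF3a1 siRNA (24.8%). They did not overlap for 6 genes in SF3a1 siRNA without LPS (45.6%) and for 4 with LPS (39.1%). The comparisons share groups, so their values are set side by side below and are not independent of each other.

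**Figure D2:**
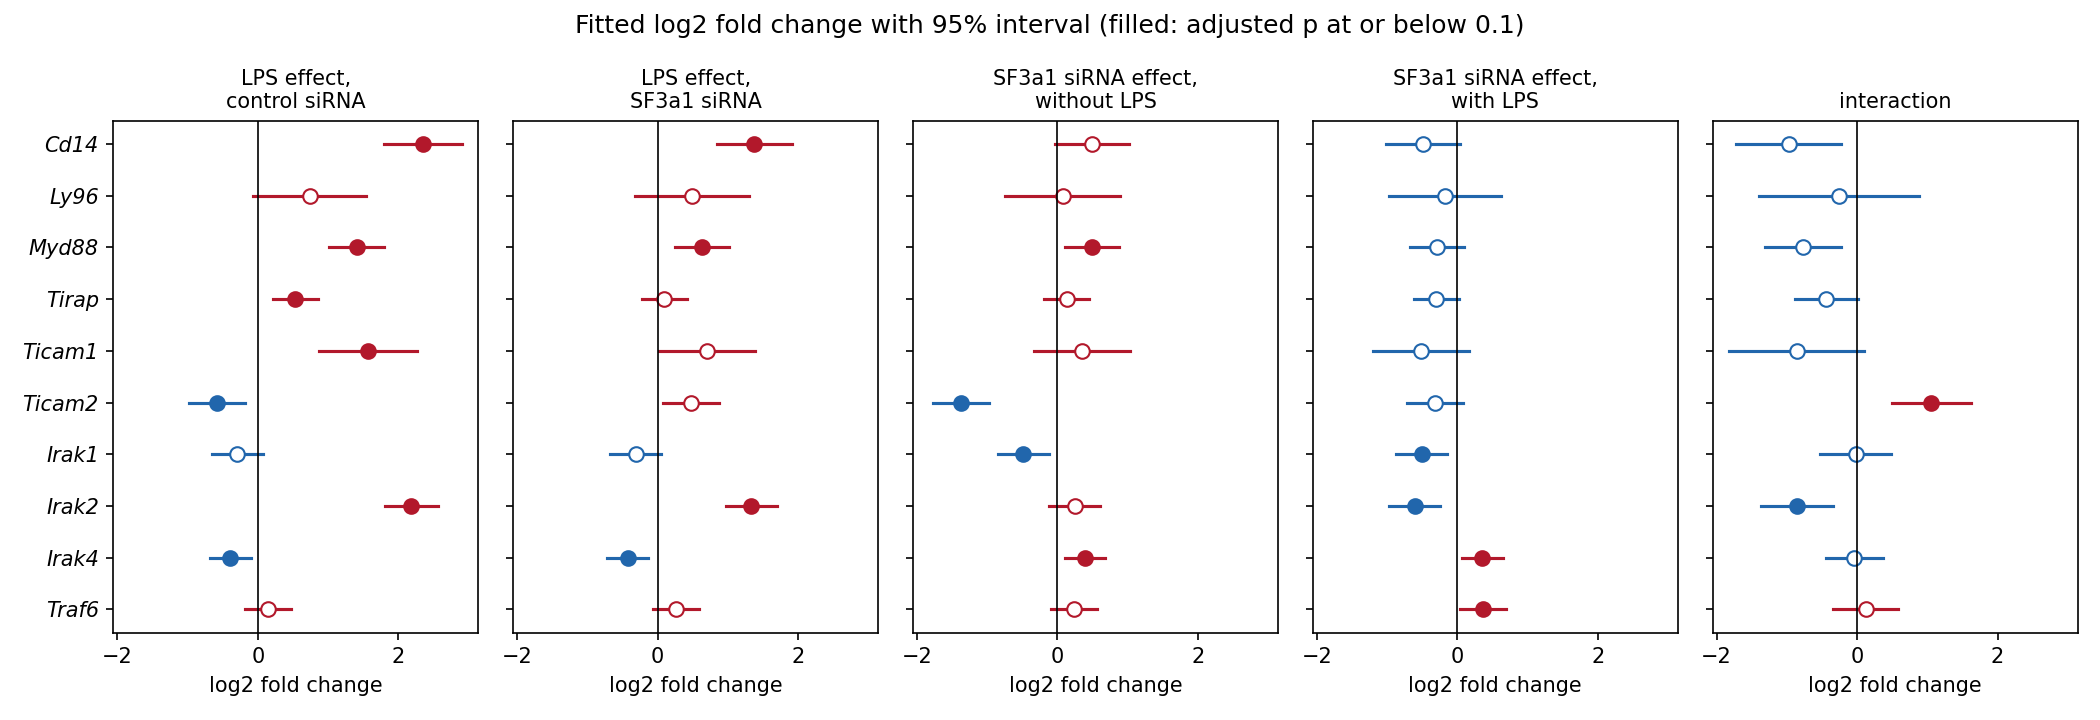
Fitted log2 fold change (horizontal axis) of each gene in the 4 comparisons and the interaction, with 95% intervals and filled points where the adjusted p was 0.1 or less. Cd14, Myd88, Tirap, Ticam1 and Irak2 have intervals above 0 for LPS with control siRNA, and only Ticam2 and Irak2 are filled in the interaction.

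Cd14 (ENSMUSG00000051439, chromosome 18, 36725067 to 36726798, reverse strand), the surface protein that delivers LPS to the receptor, was the most abundant of the 10 and was strongly induced. It measured 607, 603 and 419 CPM with control siRNA and 3677, 2491 and 2134 CPM after LPS. With SF3a1 siRNA it measured 963, 613 and 710.1 CPM without LPS and 2339, 2017 and 1576 CPM with LPS. Every LPS library was above every library without LPS. LPS raised Cd14 5.10-fold with control siRNA (log2 2.35 ± 0.25 SE, adjusted p = 2.1e-05) and 2.60-fold with SF3a1 siRNA (log2 1.38 ± 0.25, adjusted p = 0.0036). The SF3a1 effect was 0.49 ± 0.24 (log2, adjusted p = 0.164) without LPS and -0.48 ± 0.24 (adjusted p = 0.154) with LPS, and the interaction -0.97 ± 0.34 (adjusted p = 0.205). With one library left out, the SF3a1 effect with LPS ranged from -0.64 (adjusted p = 0.0894) without replicate 3 of control siRNA with LPS to -0.22 (adjusted p = 0.509) without replicate 1 of that group, its highest library. The effect without LPS was 0.29 without replicate 1 of SF3a1 siRNA without LPS. With the replicate block the 3 values were called, with adjusted p of 0.0141, 0.0155 and 0.0115. The first was also called with only the 2 groups compared (adjusted p = 0.0962), and the other values without a filter on low counts (adjusted p = 0.0971 and 0.0444).

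Ly96 (ENSMUSG00000025779, chromosome 1, 16688051 to 16709611, forward strand), which encodes the LPS-binding subunit MD-2, was scarce, with 62 to 270 reads per library. It measured 2.29, 4.74 and 6.17 CPM with control siRNA and 6.32, 4.93 and 10.5 CPM after LPS. In SF3a1 siRNA cells it measured 3.61, 5.24 and 4.98 CPM without LPS and 8.18, 5.44 and 5.58 CPM with LPS. Replicate 1 of control siRNA was lowest of all libraries, the groups overlapped for LPS with control siRNA, and no comparison passed the test. The LPS effect with control siRNA was 0.74 on the log2 scale with a 95% interval from -0.07 to 1.54 (adjusted p = 0.18). It was called with the replicate block (adjusted p = 0.086) and without replicate 3 of control siRNA without LPS (log2 1.08, adjusted p = 0.0817), and it was 0.37 (adjusted p = 0.559) without replicate 3 of control siRNA with LPS.

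Myd88 (ENSMUSG00000032508, chromosome 9, 119335934 to 119341411, reverse strand), the adaptor of most Toll-like and IL-1 family receptors, was the most abundant adaptor and rose with LPS under both siRNAs. It measured 155, 115 and 125 CPM with control siRNA and 389.7, 321 and 337 CPM after LPS. With SF3a1 siRNA it measured 192, 182 and 180.3 CPM without LPS, above every control library, and 368, 249.7 and 242 CPM with LPS, where only replicate 1 lay within the range of control siRNA with LPS. LPS raised it 2.65-fold with control siRNA (log2 1.41 ± 0.18 SE, adjusted p = 8.42e-05) and 1.55-fold with SF3a1 siRNA (0.63 ± 0.18, adjusted p = 0.0479). SF3a1 siRNA raised it 1.40-fold without LPS (0.49 ± 0.18, adjusted p = 0.0593), whereas with LPS the difference was -0.29 ± 0.18 (adjusted p = 0.252).

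The weaker Myd88 calls did not hold in every alternative. The LPS call with SF3a1 siRNA was lost with only the 2 groups compared (log2 0.63, adjusted p = 0.102) and without any one of the SF3a1 siRNA without LPS libraries or without replicate 1 of SF3a1 siRNA with LPS (adjusted p = 0.111 to 0.166, log2 0.41 to 0.66). The call for Myd88 in SF3a1 siRNA without LPS was lost without replicate 2 or 3 of control siRNA or any one of the SF3a1 siRNA libraries (adjusted p = 0.102 to 0.133) and without a filter on low counts (adjusted p = 0.108), while the log2 value stayed at 0.46 to 0.54. The interaction was -0.77 ± 0.25 (adjusted p = 0.156). It was called with the block (adjusted p = 0.0113), with DESeq2 (adjusted p = 0.0847) and without replicate 1 of SF3a1 siRNA with LPS (adjusted p = 0.0395), and the SF3a1 effect with LPS was called with the block and without that replicate (adjusted p = 0.0514 and 0.0357). Without replicate 3 of SF3a1 siRNA with LPS that effect was -0.17 (adjusted p = 0.574). Without replicate 1 of every group both were called (adjusted p = 0.0101 and 0.0214). Acaa1a overlaps exons of Myd88 on the opposite strand, and whether counting used the strand is not given in the sources used here.

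Tirap (ENSMUSG00000032041, chromosome 9, 35184551 to 35200291, reverse strand), the bridging adaptor that brings MyD88 to the receptor, measured 35.9, 33.3 and 30.1 CPM with control siRNA and 52.5, 47.7 and 43.3 CPM after LPS. In SF3a1 siRNA cells Tirap measured 41.2, 35.2 and 32.5 CPM without LPS and 40.7, 34.0 and 41.8 CPM with LPS. The LPS libraries were separate with control siRNA and interleaved with SF3a1 siRNA. LPS raised Tirap 1.44-fold with control siRNA (log2 0.53 ± 0.15 SE, adjusted p = 0.0179). With SF3a1 siRNA the LPS difference was 0.10 with a 95% interval from -0.23 to 0.42 (adjusted p = 0.841). The difference between these LPS effects was -0.43 ± 0.21 (adjusted p = 0.412), so they were not shown to differ, and the SF3a1 effect with LPS (-0.30 ± 0.15, adjusted p = 0.146) was called only with the block (adjusted p = 0.0675). Tirap overlaps exons of Gm39318 and Srpr on the opposite strand.

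Ticam1 (ENSMUSG00000047123, chromosome 17, 56269319 to 56276786, reverse strand) encodes TRIF, which links endosomal TLR4 to interferon induction. It measured 44.3, 23.1 and 26.8 CPM with control siRNA and 143, 67.7 and 68.0 CPM after LPS. Under SF3a1 siRNA it measured 45.8, 32.8 and 41.1 CPM without LPS and 75.8, 50.8 and 68.9 CPM with LPS. Replicate 1 was highest in each group, and the libraries with and without LPS did not overlap under either siRNA. LPS raised Ticam1 2.96-fold with control siRNA (log2 1.57 ± 0.32 SE, adjusted p = 0.00271).

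With SF3a1 siRNA the LPS difference of Ticam1 was 0.71 ± 0.32 (adjusted p = 0.238), which was called with the block (adjusted p = 0.0117), without a filter (0.0209), with only the 2 groups compared (0.0889) and without replicate 1 of control siRNA with LPS (0.0928). The SF3a1 effect was 0.34 ± 0.31 without LPS (adjusted p = 0.474) and -0.52 ± 0.31 with LPS (adjusted p = 0.244), and the interaction -0.86 ± 0.44 (adjusted p = 0.46). All 3 were called with the block (adjusted p = 0.0805, 0.0406 and 0.0465), and the SF3a1 effect with LPS also without a filter (adjusted p = 0.0811). Both the SF3a1 effect with LPS and the interaction rested in large part on replicate 1 of control siRNA with LPS, the library at 143 CPM. Without it they were -0.05 (adjusted p = 0.899) and -0.40 (adjusted p = 0.747), and the SF3a1 effect with LPS was -0.18 (adjusted p = 0.47) without replicate 1 of every group. Without replicate 1 of every group, which sets the 2-run libraries aside, the LPS difference with SF3a1 siRNA (adjusted p = 0.0286) and the SF3a1 effect without LPS (log2 0.57, adjusted p = 0.0334) were called, the latter also without replicate 1 of control siRNA without LPS alone (log2 0.78, adjusted p = 0.1).

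Ticam2 (ENSMUSG00000056130, chromosome 18, 46557291 to 46574533, reverse strand), which encodes TRAM, the bridging adaptor for TRIF, had the lowest level per length, for the length used here. Of the 10 genes it had the largest SF3a1 effect in the absence of LPS. It measured 17.7, 17.5 and 18.5 CPM with control siRNA and 6.34, 7.52 and 6.92 CPM with SF3a1 siRNA. After LPS it measured 10.7, 10.8 and 14.4 CPM with control siRNA and 8.11, 9.97 and 10.8 CPM with SF3a1 siRNA. The groups without LPS were far apart, and those with LPS met at 10.8 CPM. SF3a1 siRNA lowered Ticam2 to 38.7% of control without LPS (log2 -1.37 ± 0.19 SE, adjusted p = 0.00024), a call kept in all 19 alternatives computed (adjusted p at most 0.00255).

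With LPS the SF3a1 difference of Ticam2 was -0.32 ± 0.18 (adjusted p = 0.22). LPS lowered Ticam2 with control siRNA (-0.58 ± 0.18, adjusted p = 0.0303), and with SF3a1 siRNA the LPS difference was 0.47 ± 0.18 (adjusted p = 0.17; 0.0679 with the block). The interaction passed the test at 1.06 ± 0.26 (adjusted p = 0.0584). It was lost without any one library of control siRNA without LPS or of SF3a1 siRNA without LPS, without replicate 2 of control siRNA with LPS, or without replicate 3 of SF3a1 siRNA with LPS (adjusted p = 0.111 to 0.179, log2 0.97 to 1.11), and without a filter on low counts (adjusted p = 0.12). The LPS call with control siRNA was lost without replicate 3 of control siRNA without LPS (adjusted p = 0.101) or replicate 2 of control siRNA with LPS (adjusted p = 0.104), and without a filter (adjusted p = 0.124).

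Ticam2 shares 838 bases of exon with Tmed7, a trafficking gene on the same strand, and reads that fit both genes are left out of either gene's count. The length used for the level of Ticam2 per kb holds those bases, and 1588 bases found only in a retained-intron transcript. On a shorter length the level of Ticam2 per kb would be higher. Such a length was not tried, so its lowest place is not shown to hold for one. Tmed7 rose with SF3a1 siRNA, by 0.48 ± 0.13 without LPS (log2 SE, adjusted p = 0.0168) and 0.57 ± 0.13 with LPS (adjusted p = 0.0055), in the opposite direction to Ticam2. In the exon files, the 4 bins that belong to Ticam2 alone summed without LPS to 18.4 ± 0.530 CPM (SD, n = 3) in control and 7.04 ± 0.765 CPM in SF3a1 siRNA cells, and the 8 bins of Tmed7 alone to 161 ± 13.4 and 223 ± 17.4 CPM. After LPS the Ticam2 bins summed to 11.1 ± 0.0585 CPM (n = 2) with control siRNA and 9.93 ± 1.19 CPM (n = 3) with SF3a1 siRNA.

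Irak4 (ENSMUSG00000059883, chromosome 15, 94543643 to 94581815, forward strand), the kinase that starts the IRAK cascade, fell with LPS and rose with SF3a1 siRNA, by small amounts each time. It measured 22.8, 22.3 and 24.0 CPM with control siRNA and 17.6, 17.4 and 17.6 CPM after LPS. With SF3a1 siRNA it measured 30.7, 28.3 and 31.8 CPM without LPS and 24.7, 20.7 and 21.9 CPM with LPS. No pair of groups compared overlapped. The LPS effect was -0.39 ± 0.13 (log2 SE, adjusted p = 0.0453) with control siRNA and -0.43 ± 0.13 (adjusted p = 0.0738) with SF3a1 siRNA. The SF3a1 effect was 0.39 ± 0.13 (adjusted p = 0.0433) without LPS and 0.36 ± 0.13 (adjusted p = 0.0591) with LPS, and the interaction was -0.04 with a 95% interval from -0.44 to 0.37.

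Each of the 4 Irak4 calls was lost without some single library, with its sign kept. For LPS with control siRNA these were replicates 1 and 3 of control siRNA without LPS and replicate 2 with LPS (adjusted p = 0.107 to 0.151). For LPS with SF3a1 siRNA they were replicate 2 of control siRNA with LPS, all 3 of SF3a1 siRNA without LPS, and replicates 2 and 3 of SF3a1 siRNA with LPS (adjusted p = 0.101 to 0.237). For SF3a1 siRNA without LPS they were replicates 1 and 3 of SF3a1 siRNA (adjusted p = 0.102 and 0.143), and with LPS replicates 2 and 3 of control siRNA and replicate 1 of SF3a1 siRNA (adjusted p = 0.113 to 0.188), and also replicate 1 of every group together (adjusted p = 0.17). Without a filter on low counts all 4 calls were lost (adjusted p = 0.289 to 0.472), and with only the 2 groups compared all but that for SF3a1 siRNA without LPS (adjusted p = 0.15 to 0.156). Twf1 overlaps exons of Irak4 on the opposite strand.

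Irak2 (ENSMUSG00000060477, chromosome 6, 113638467 to 113695026, forward strand), the IRAK that sustains signaling late in the response, was strongly induced by LPS. It measured 51.6, 42.4 and 36.5 CPM with control siRNA and 179.6, 209 and 205 CPM after LPS. Under SF3a1 siRNA Irak2 measured 62.9, 46.3 and 45.2 CPM without LPS and 140.0, 122 and 127 CPM with LPS. Without LPS the siRNA groups overlapped, and with LPS every SF3a1 siRNA library was below every control library. LPS raised Irak2 4.55-fold with control siRNA (log2 2.18 ± 0.17 SE, adjusted p = 1.42e-06) and 2.52-fold with SF3a1 siRNA (1.33 ± 0.17, adjusted p = 0.000244). SF3a1 siRNA lowered it to 65.6% of control with LPS (log2 -0.61 ± 0.17, adjusted p = 0.0147), and the difference without LPS was 0.24 ± 0.17 (adjusted p = 0.322).

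The interaction of Irak2 was -0.85 ± 0.24 on the log2 scale and passed the test narrowly (adjusted p = 0.0971; 0.0185 with the block). Of the 12 libraries, leaving out any one other than replicate 1 of control siRNA without LPS or replicate 1 of control siRNA with LPS ended the call (adjusted p = 0.11 to 0.203, log2 -0.94 to -0.68), as did RLE scaling and limma-voom (adjusted p = 0.104 and 0.1002). Without replicate 1 of control siRNA the SF3a1 effect on Irak2 without LPS was called (log2 0.49, adjusted p = 0.0644). Gm43963 overlaps exons of Irak2 on the opposite strand.

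Irak1 (ENSMUSG00000031392, chromosome X, 74013914 to 74023918, reverse strand), the kinase that binds TRAF6, fell with SF3a1 siRNA in both conditions. It measured 209, 158 and 178 CPM with control siRNA and 147, 121 and 121 CPM with SF3a1 siRNA. With LPS it measured 152, 151 and 141 CPM with control siRNA and 121, 81.1 and 109.9 CPM with SF3a1 siRNA. No SF3a1 siRNA library reached a control library of the same LPS condition. The level was 71.3% of control without LPS (log2 -0.49 ± 0.17 SE, adjusted p = 0.0467) and 70.3% with LPS (-0.51 ± 0.17, adjusted p = 0.0354), and the interaction was -0.02 with a 95% interval from -0.53 to 0.49.

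The Irak1 call without LPS was lost without replicate 1 or 3 of control siRNA or replicate 2 or 3 of SF3a1 siRNA (adjusted p = 0.153 to 0.296, log2 -0.44 to -0.27), with the weakest value without replicate 1 of control siRNA. With LPS it was lost without replicate 2 of SF3a1 siRNA (log2 -0.36, adjusted p = 0.113) and with only the 2 groups compared (log2 -0.46, adjusted p = 0.108). The LPS effect on Irak1 was -0.29 ± 0.17 with control siRNA (adjusted p = 0.236) and -0.31 ± 0.17 with SF3a1 siRNA (adjusted p = 0.346), and both were called with the block (adjusted p = 0.0891 and 0.0993). Reads within Irak1 that also fit the microRNA genes Mir718 or Mir5132 are ambiguous and are not in its gene count.

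Traf6 (ENSMUSG00000027164, chromosome 2, 101678429 to 101701669, forward strand), the ubiquitin ligase that IRAK1 and IRAK2 activate, changed little. It measured 35.2, 34.6 and 34.5 CPM with control siRNA and 38.7, 40.1 and 36.2 CPM after LPS. With SF3a1 siRNA it measured 40.2, 41.2 and 41.5 CPM without LPS and 52.5, 37.9 and 57.3 CPM with LPS, where replicate 2 lay within the range of control siRNA with LPS. SF3a1 siRNA raised it 1.28-fold with LPS (log2 0.36 ± 0.15 SE, adjusted p = 0.089), and the difference without LPS was 0.24 ± 0.15 (adjusted p = 0.286). That call was lost in 8 of the 12 fits that leave out one library, namely any of control siRNA with LPS, any of SF3a1 siRNA without LPS, and replicates 1 and 3 of SF3a1 siRNA with LPS (adjusted p = 0.107 to 0.303). It was also lost with limma-voom (0.104), without a filter (0.282), with only the 2 groups compared (0.164) and without replicate 1 of every group (0.203), so that 7 of 19 alternatives kept it. The LPS effect was 0.14 with a 95% interval from -0.19 to 0.47 with control siRNA and 0.27 from -0.06 to 0.59 with SF3a1 siRNA. The latter was called without replicate 2 of SF3a1 siRNA with LPS (log2 0.42, adjusted p = 0.0832), and was 0.14 (adjusted p = 0.725) without replicate 3 of that group.

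Because SF3a1 acts in splicing, the exon bins of these genes were examined next. A bin is a stretch of a gene with the same set of transcripts over it, and its usage is its share of all bin counts of the gene. A read that spans 2 bins is counted in both. At this level control siRNA with LPS had replicates 1 and 2 only. The 8 genes with a unit of their own kept 76 of their 91 bins after the filter, from 2 for Cd14 and Ticam1 to 17 for Irak2.

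In the 8 genes, 0 of 76 bins were called in any comparison by edgeR's diffSpliceDGE, where 6.16% of 10609 tested genes had a called bin after SF3a1 siRNA in the absence of LPS, 5.03% in its presence, 0.462% for LPS with control siRNA and 0.104% for LPS with SF3a1 siRNA. The count was also 0 with limma-voom's diffSplice, with the DEXSeq model fitted by DESeq2 and with the replicate block. At an unadjusted p under 0.05 there were 1 and 3 of the 76 bins for SF3a1 siRNA without and with LPS, and 0 and 3 for LPS with control and SF3a1 siRNA. These were Tirap bin 7 in exon 5, Tirap bins 15 to 17 in intron 1, Irak2 bin 10 in both SF3a1 comparisons, and Irak4 bin 16, an alternative last exon with 0 to 18 counts per library. Of all 153624 tested bins, 0.626% and 0.492% were called for SF3a1 siRNA without and with LPS, 0.0801% for LPS with control siRNA (0.0514% higher and 0.0286% lower) and 0.0254% for LPS with SF3a1 siRNA (0.0208% higher and 0.00456% lower). Over all bins the shares at the unadjusted threshold were 3.39% and 3.99% for SF3a1 siRNA, and 1.97% and 1.29% for LPS.

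**Figure D3:**
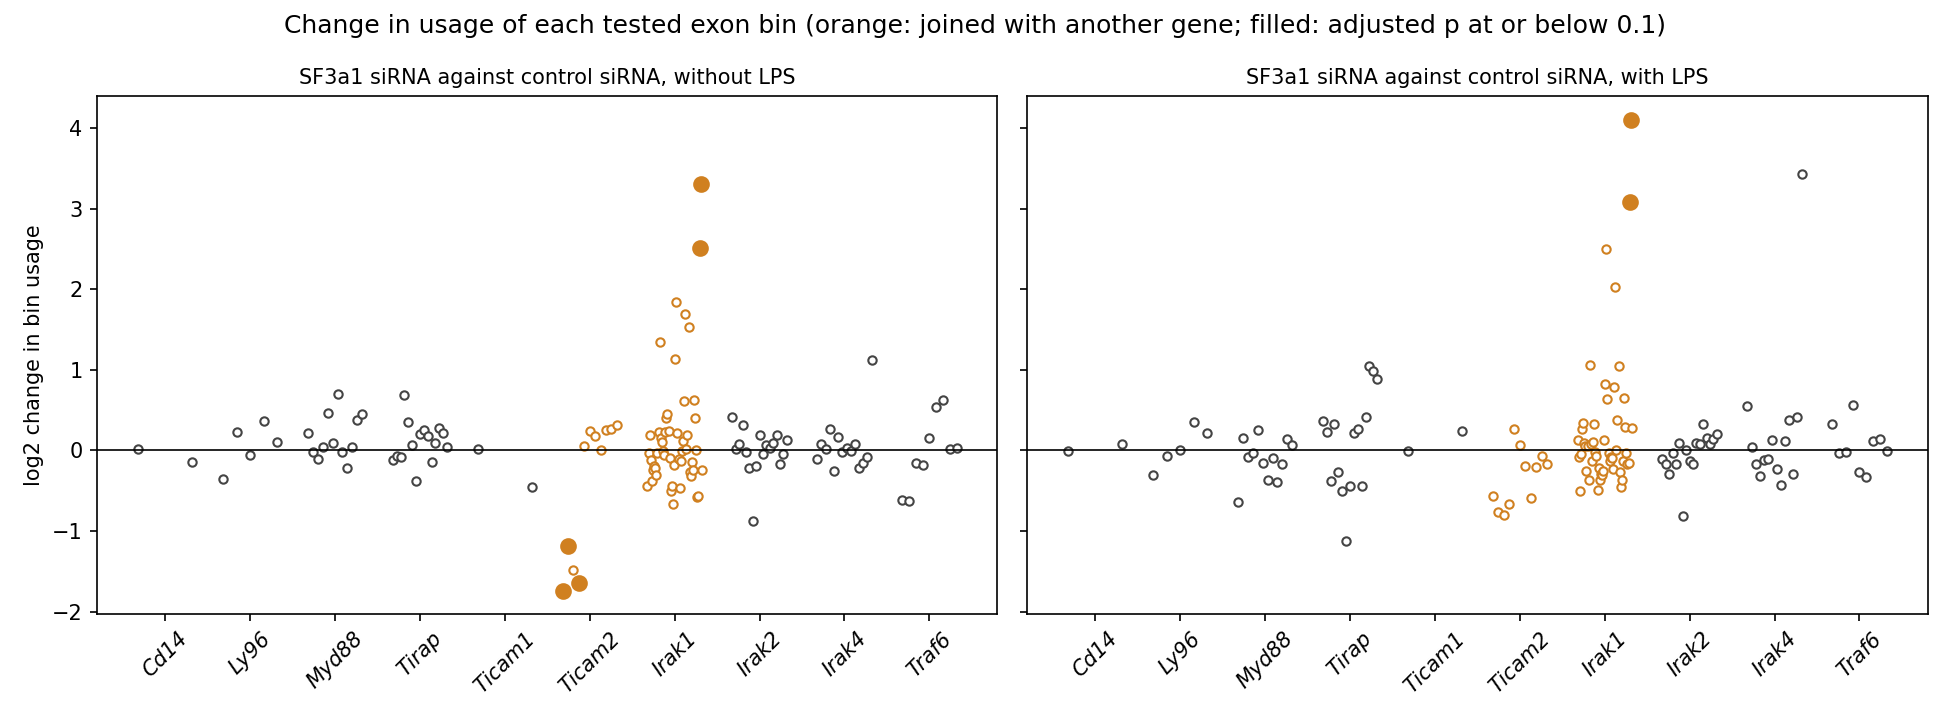
Log2 change in usage (vertical axis) of every tested bin of each gene, in order along the gene, for SF3a1 siRNA against control siRNA without LPS (left) and with LPS (right). The filled orange points of Irak1 are the 2 bins of its first intron (log2 2.51 and 3.30 without LPS, 3.09 and 4.10 with LPS), and none of the gray points, the genes with a unit of their own, is filled.

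Irak1 differed from the 8. Its unit of 61 bins is joined with Mir718 and Mir5132, and the 2 bins of its first intron were called higher in both SF3a1 comparisons, where 0.497% of all bins without LPS and 0.381% with LPS were called higher. That intron lies at chrX:74023534-74023609 (mm10, reverse strand, 76 bases) between the first and second coding exons, and an annotated noncoding transcript keeps it. It is printed below 5′ to 3′ from GENCODE, followed by the last 40 bases of introns 2 to 5 for comparison. Capitals mark the 13 bases that lie 17 to 5 bases from the 3′ end of the intron, where the polypyrimidine tract usually lies.
Irak1 intron 1 (chrX:74023534-74023609): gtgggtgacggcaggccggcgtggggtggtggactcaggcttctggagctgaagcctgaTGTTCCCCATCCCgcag
Irak1 intron 2 (chrX:74023198-74023365): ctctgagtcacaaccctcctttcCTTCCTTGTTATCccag
Irak1 intron 3 (chrX:74022953-74023065): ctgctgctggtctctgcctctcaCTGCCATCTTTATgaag
Irak1 intron 4 (chrX:74022665-74022848): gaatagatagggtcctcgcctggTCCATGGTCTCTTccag
Irak1 intron 5 (chrX:74022250-74022472): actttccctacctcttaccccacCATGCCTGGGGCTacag

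The first intron was the shortest of the 5 and the richest in G and C, at 67.1% beside 49.5 to 57.1% for introns 2 to 5. Of the 13 bases in capitals, 11 were C or T in introns 1 and 2, 10 in introns 3 and 4, and 7 in intron 5. Thymines made up 4 of the 13 in intron 1, 7 in intron 2, 6 in introns 3 and 4, and 3 in intron 5. Every one of the 5 begins with GT and ends with AG.

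The same bases encode a microRNA. Mir5132 overlaps the intron on the same strand, and its 3p arm (chrX:74023534-74023554) ends at the last base of the intron, so that its 3′ end coincides with the splice site. The mature arms follow from RefSeq (GRCm38.p6), with the seed, bases 2 to 8, in capitals, because reads of the intron and of this precursor, which covers the 65 bases next to exon 2, cannot be told apart.
mmu-miR-5132-5p (chrX:74023571-74023591): gCGUGGGGugguggacucagg
mmu-miR-5132-3p (chrX:74023534-74023554): cUGAUGUUccccaucccgcag

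In the 65 bases next to exon 2, bin 50 of Irak1, control siRNA libraries without LPS had 23, 11 and 4 counts (0.128, 0.193 and 0.0568% of the unit) and SF3a1 siRNA libraries 43, 34 and 19 counts (0.562, 0.963 and 0.702%). With LPS the 2 control libraries had 14 and 3 counts (0.128 and 0.0972%), and the SF3a1 siRNA libraries 95, 22 and 31 counts (1.25, 0.977 and 0.773%). The groups were separate in both conditions although Irak1 as a whole was lower with SF3a1 siRNA. The log2 change in usage was 2.51 ± 0.55 (SE, adjusted p = 0.0028) without LPS and 3.09 ± 0.67 (adjusted p = 0.0039) with LPS.

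The 11 bases at the 5′ splice site, bin 51 of Irak1, lie outside Mir5132 and changed alike. Mapped reads were longer than this bin, so a read on it also reaches a neighbouring bin and is counted there. Bins 50 and 51 therefore share reads and are not separate measurements. Without LPS, bin 51 had 12, 1 and 0 counts with control siRNA and 25, 20 and 9 with SF3a1 siRNA. With LPS it had 3 and 2 against 81, 8 and 19. The log2 change was 3.30 ± 0.69 (adjusted p = 0.0014) and 4.10 ± 0.87 (adjusted p = 0.003). Without LPS both bins kept their call in every alternative. With LPS the call on bin 50 was lost without replicate 1 (log2 3.38, adjusted p = 0.508) or replicate 2 (log2 2.998, adjusted p = 0.142) of control siRNA, which leaves 1 control library assumed to vary like the other groups, while the change stayed about as large. That on bin 51 was lost without replicate 1 of control siRNA (log2 3.39, adjusted p = 0.91) or of every group (log2 2.68, adjusted p = 0.623).

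Set against the coding exons of Irak1, counts per base in intron 1 were 6.37 ± 3.46% (SD, n = 3) with control siRNA and 49.99 ± 17.1% with SF3a1 siRNA without LPS. With LPS they were 6.42 ± 0.204% (n = 2) and 68.6 ± 20.4% (n = 3). Introns 2 to 5 were looked at after these values were seen. Intron 2, beside it in the gene, stood at 3.66 ± 2.52 and 6.17 ± 2.88% without LPS and at 3.37 ± 0.276 and 4.92 ± 2.70% with LPS, and its libraries overlapped. Introns 3, 4 and 5 stood at 8.84 to 14.5% on average in the control groups and at 22.6 to 38.5% with SF3a1 siRNA. Their libraries did not overlap between siRNAs in either condition, with only 2 control libraries with LPS. The share of all introns whose libraries separate in this way was not counted.

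**Figure D4:**
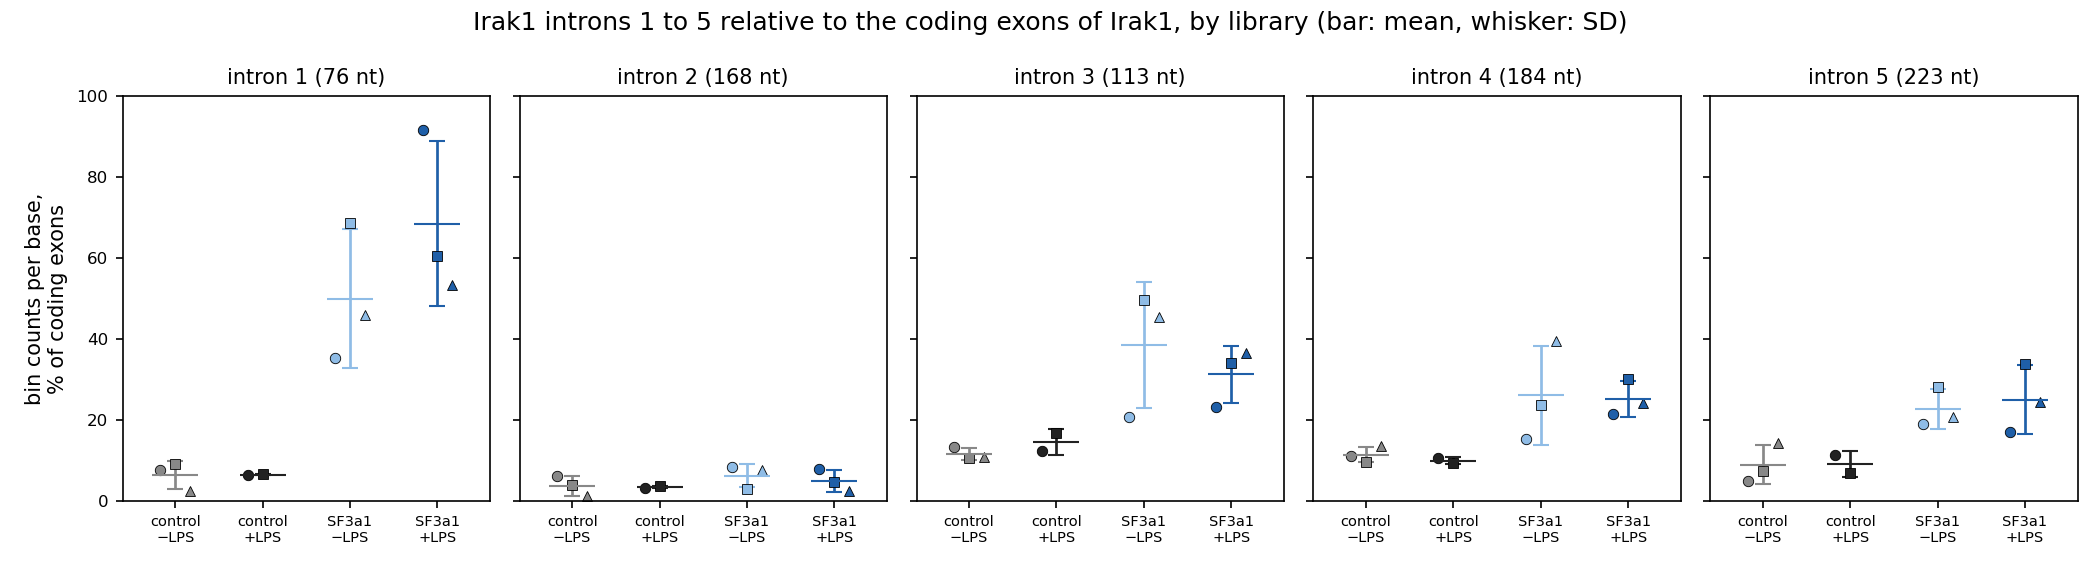
Bin counts per base of Irak1 introns 1 to 5 as a percentage of those of its coding exons (vertical axis, linear from 0), for each library with the group mean and SD, with 2 libraries for control siRNA with LPS. Intron 1 lies between 2.45 and 8.98% in control libraries and between 35.2 and 91.8% in SF3a1 siRNA libraries, and intron 2 does not exceed 8.20% in any library.

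In introns 3 to 5 of Irak1, bin 40 (intron 3) had a log2 change of 1.54 ± 0.45 without LPS and 1.05 ± 0.52 with LPS, bin 37 (intron 4) 1.70 ± 0.54 and 2.02 ± 0.66, and bin 29 (intron 5) 1.84 ± 0.56 and 2.50 ± 0.71. The adjusted p was 0.102, 0.213 and 0.164 without LPS and 1, 0.286 and 0.102 with LPS, so none was called. With the replicate block, bins 29 and 37 were called in both conditions (adjusted p = 0.0077 and 0.011 without LPS, 0.0096 and 0.064 with LPS) and bins 28 (intron 5) and 40 without LPS (adjusted p = 0.0645 and 0.0016). The DEXSeq model called bin 37 in both conditions, bin 40 without LPS and bin 29 with LPS (adjusted p = 0.00365 to 0.047), and a minimum of 30 counts called bin 40 without LPS and bin 29 with LPS (adjusted p = 0.0827 and 0.0782). Bin 40 was also called without LPS when replicate 1 of control siRNA (adjusted p = 0.0708), of SF3a1 siRNA (0.031) or of every group (0.00038) was left out, and when replicate 1 (0.0702) or 2 (0.0884) of SF3a1 siRNA with LPS was. Bin 29 was called without LPS when replicate 3 of control siRNA was left out (adjusted p = 0.0319), and with LPS when replicate 1 (0.0329) or 2 (0.0788) of control siRNA without LPS or replicate 1 of SF3a1 siRNA without LPS (0.0892) was. Bin 37 without LPS was called without replicate 1 of every group (adjusted p = 0.0727).

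Exon 2 of Myd88 separates the long, active form from the short form MyD88-S, which lacks it and inhibits signaling. The exon lies at chr9:119338576-119338710 (mm10, reverse strand), is all coding and holds 135 bases, or 45 whole codons. It is printed below with the 21 bases in capitals that the study's primer for the long form covers, and the 2 junction primers follow with their 7 bases of exon 3 in capitals, since only the bases before that junction tell the forms apart.
Myd88 exon 2: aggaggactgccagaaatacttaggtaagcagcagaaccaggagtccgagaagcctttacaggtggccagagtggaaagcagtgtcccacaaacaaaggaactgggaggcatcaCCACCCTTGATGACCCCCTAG
MyD88-L primer: ccacccttgatgaccccctagGACAAAC
MyD88-S primer: ggagctgaagtcgcgcatcgGACAAAC

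Bin 8 of Myd88 is this exon, and it took 10.3, 8.73 and 8.81% of Myd88 bin counts with control siRNA and 9.55, 9.07 and 9.11% with SF3a1 siRNA without LPS. With LPS it took 8.13 and 11.3% with control siRNA and 8.76, 9.62 and 8.47% with SF3a1 siRNA. The groups overlapped throughout. The log2 change with SF3a1 siRNA was -0.02 with a 95% interval from -0.70 to 0.65 without LPS and -0.09 from -0.83 to 0.65 with LPS. These intervals are for the usage of exon 2. Bin counts hold no junctions, so the share of the short form was not measured and the intervals set no limit on its change. Relative to the other coding exons, exon 2 was covered at 105 ± 15.4% (SD, n = 3) with control siRNA and 102 ± 2.37% with SF3a1 siRNA without LPS.

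Introns 2 and 3 of Myd88, which annotated transcripts keep, stood at 2.67 ± 1.76 and 3.95 ± 0.406% of coding exon coverage (SD, n = 3) with control siRNA and at 4.68 ± 2.08 and 5.71 ± 1.97% with SF3a1 siRNA without LPS, with overlapping libraries. Their 3′ ends are shown beside those of Irak1, with the same positions in capitals.
Myd88 intron 2 (chr9:119338187-119338575): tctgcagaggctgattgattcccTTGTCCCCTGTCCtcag
Myd88 intron 3 (chr9:119337846-119338005): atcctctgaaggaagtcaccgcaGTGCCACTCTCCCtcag
They hold 11 and 10 pyrimidines in the 13 bases, as many as introns 1 to 4 of Irak1. The 2 bins of Cd14 are its exons, which leaves its single intron uncounted in these files, and the usage of its 2 bins changed by -0.28 to 0.08 on the log2 scale over the 4 comparisons, with none called.

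The bins of Ticam2 are counted with those of Tmed7, so a change in one gene appears as usage of the other. Bins 1 and 5, in exons 3 and 1 of Ticam2 alone, were called lower with SF3a1 siRNA without LPS (log2 -1.74 and -1.65, adjusted p = 0.000246 and 0.00838). This restates the opposite gene-level changes of Ticam2 and Tmed7. Bin 2, the 838 bases of exon 3 shared with Tmed7, was also called lower (log2 -1.18, adjusted p = 0.0735). It measured 10.3 ± 0.780 CPM (SD, n = 3) in control and 5.61 ± 1.37 CPM in SF3a1 siRNA cells. Which of the genes its reads came from was not tested. Of all bins, 0.128% were called lower. With LPS no bin of the unit was called, where 0.111% of all bins were called lower.

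Genes around the 10 were described from 4 lists, whose counts are to be read against the shares of all genes called. These were 32.1% and 10.7% for LPS with control and SF3a1 siRNA and 33.8% and 38.8% for SF3a1 siRNA without and with LPS. For the interaction the share was 3.47%. Of 13 tested genes of the receptor and its handling, LPS with control siRNA raised 3 and lowered 2, with a median log2 change of 0.08 beside -0.02 over all genes. Itgam and Itgb2, the chains of the integrin CR3, rose 3.05-fold and 2.31-fold (adjusted p = 0.011 and 0.000826), and Cnpy3, a chaperone of Toll-like receptors, fell to 67.0% of its level (adjusted p = 0.0589). The Itgam libraries after LPS lay far apart, at 294 ± 223 CPM (SD, n = 3) beside 96.4 ± 16.6 CPM without LPS. Its highest library in the series measured 551 CPM, so a single library may carry much of the 3.05-fold value. With SF3a1 siRNA instead, LPS raised 1, Itgb2, and lowered 0. SF3a1 siRNA raised 3 and lowered 2 without LPS and raised 3 and lowered 1 with LPS, shares near the 33.8% and 38.8% of all genes. Rab7b, a small GTPase that directs TLR4 to lysosomes, rose 1.89-fold and 2.10-fold (adjusted p = 0.026 and 0.0107), and Hsp90b1, the chaperone gp96 that folds TLR4, fell to 65.4 and 71.5% of control (adjusted p = 0.00865 and 0.0256).

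Of 10 tested receptors of the Toll-like and IL-1 families, LPS with control siRNA raised 6 and lowered 1 (median log2 1.14 beside -0.02), among them Tlr3, the receptor for double-stranded RNA, at 9.45-fold (adjusted p = 3.92e-06) and Tlr1 by 1.59 on the log2 scale (adjusted p = 6.72e-05). LPS with SF3a1 siRNA raised 1, Tlr1, and lowered 2, Tlr13 and Tlr7 (median 0.18 beside 0.01). SF3a1 siRNA raised 3 and lowered 1 without LPS, and raised 0 and lowered 6 with LPS (median -0.64 beside -0.04). Il1rap, the shared chain of IL-1 family receptors, rose 2.64-fold without LPS (adjusted p = 0.00168), and Tlr3 fell to 26.2% and Tlr1 to 42.0% of control with LPS (adjusted p = 0.000258 and 0.00052). The interaction was called lower for Tlr3 (log2 -2.79, adjusted p = 0.00408) and Il1rap (log2 -1.39, adjusted p = 0.0743), where 1.94% of all genes were called lower.

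Of 19 tested kinases and ubiquitin ligases below the IRAKs and TRIF, LPS raised 8 and lowered 1 with control siRNA (median log2 0.21) and raised 5 and lowered 0 with SF3a1 siRNA (median 0.13). Ikbke, a kinase that activates interferon regulatory factors, rose 22.4-fold and 9.49-fold, and Peli1, a ligase that binds IRAKs, 10.3-fold and 4.37-fold. SF3a1 siRNA raised 3 and lowered 4 without LPS and raised 3 and lowered 7 with LPS (median 0.04 and -0.10 beside -0.02 and -0.04), where 33.8% and 38.8% of all genes were called. Ikbkb, which encodes IKKβ, fell to 50.4% and Ikbke to 25.7% of control with LPS (adjusted p = 0.000246 and 0.000148). The interaction was called for 0 of the 19, where 3.47% of all genes were called.

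The last list held inhibitors of the response, and not all of them act at the receptor, adaptor or IRAK step. Of its 17 tested genes, LPS raised 6 and lowered 2 with control siRNA. With SF3a1 siRNA, LPS raised 5 and lowered 0 (median log2 0.16 and -0.03 with control and SF3a1 siRNA). Socs1, a suppressor of cytokine signaling, rose 37.0-fold and 11.9-fold, from 0.494 ± 0.165 CPM (SD, n = 3) in control cells, and Tnfaip3, the deubiquitinase A20, rose 15.9-fold and 7.81-fold. SF3a1 siRNA raised 3 and lowered 3 without LPS and raised 1 and lowered 9 with LPS (median 0.01 and -0.46 beside -0.02 and -0.04). Of all genes 33.8% were called without LPS, near the share of this list, and with LPS 18.4% were called higher and 20.4% lower. With LPS, SF3a1 siRNA changed Nlrc5 by -2.84 on the log2 scale, and lowered Trim30a to 27.5% and Irak3, the inhibitory IRAK, to 46.3% of control (adjusted p = 1.08e-05, 0.000107 and 0.0324). Zc3h12a, an RNase that degrades cytokine mRNA, had a called interaction of -1.31 ± 0.27 (log2 SE, adjusted p = 0.0273). Nlrc5 and Trim30a also had a called interaction, of -2.31 and -1.84, where 1.94% of all genes were called lower.

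For each gene, the one with the most similar profile of log2 CPM over the 12 libraries was found by Pearson r, as a description over libraries that share groups, depth and replicate numbers. The search covered genes averaging 10 CPM or more. The most similar gene was Pde4b for Irak2 (r = 0.987), Phlda1 for Myd88 (0.981), Bcl3 for Cd14 (0.980) and Plekhn1 for Ticam1 (0.971). It was Atp8a1 for Irak1 (0.977), Gnptab for Irak4 (0.977), Piezo1 for Tirap (0.967), Rpa3 for Ticam2 (0.937), Dcaf1 for Traf6 (0.922) and Hspe1 for Ly96 (0.890).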

How the data were processed

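RNA from 12 libraries of RAW264.7 cells was measured by RNA-seq. The authors mapped single-end Ion Proton reads to mm10 with GSNAP, kept unique alignments and counted reads per gene with HTSeq and per exon bin with the DEXSeq counting script, and the deposited values are raw counts. Whether counting used the strand is not given in the sources used here. Samples were grouped by siRNA and LPS as labelled. The 10 genes and all gene lists were chosen with earlier results of these data known.

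Gene counts were fitted with edgeR 4.0.16 (R 4.3.3; TMM, filterByExpr, quasi-likelihood, 1 mean per group, 12 libraries), and p-values were adjusted over 14983 genes by the Benjamini-Hochberg method, with calls at 0.1 or less. Bin counts of 11 libraries were fitted with diffSpliceDGE, adjusting over 153624 bins. Every adjusted p at the gene or bin level is from these fits unless another tool is named. Same-numbered replicates deviated together, with a correlation of deviations from the group means of 0.14 to 0.60 over 18 pairs, all above 0.1. The numbers were therefore taken to pair the samples. Replicate 1 correlated negatively with replicates 2 and 3 of other groups. Replicates 2 and 3 were less clearly separate, since most of their pairs across groups also correlated above 0.1. Replicate 3 of control siRNA without LPS and replicate 2 of SF3a1 siRNA with LPS correlated at 0.35. Replicates were not duplicates of one another. Levels per length used the union of GENCODE vM21 exons, for Cd14 and Ly96 those of older transcripts only. Bins were placed by rebuilding them from that annotation. Those of Cd14 and Ly96 matched only with its older transcripts, and those of Irak2 could not be placed. All 10 genes and Sf3a1 were named, with up to 4 called genes of each list with the largest changes, the bins of Irak1 intron 1 and Myd88 exon 2, and the most similar gene of each. Alternatives were RLE scaling, DESeq2 1.42.0, limma-voom (limma 3.58.1), no filter, the replicate block, only the groups compared, leaving out each library and, for bins, diffSplice in limma, the DEXSeq model fitted with DESeq2 and a minimum of 30 counts. Leaving out replicate 1 of every group was added after seeing the data. The scripts were tested on simulated data. Depth of 12746019 to 41091887 reads per library limits Ly96 most, with 62 to 270 reads.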

Additional observations from a re-analysis of the deposited data

Results flagged for a closer look

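The interaction, the SF3a1 effect with LPS minus that without, differed from 0 for 2 of the 10 genes in the test of the difference itself without the replicate block. With the block, which takes same-numbered replicates as pairs, 5 were called: these 2 (adjusted p = 0.0114 and 0.0185), Cd14 (0.0115), Myd88 (0.0113) and Ticam1 (0.0465). For Ticam2 it was 1.06 on the log2 scale, with an SF3a1 effect of -1.37 without LPS and -0.32 with LPS. For Irak2 it was -0.851, with an SF3a1 effect of 0.24 without LPS and -0.61 with LPS. Both calls without the block were lost when most single libraries were left out, as given above.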

How the results depend on the processing

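For single genes, 251 of 290 values under other settings kept direction and side of the threshold, 17 lost a call, 21 gained one and 1 changed sign. Of 650 with a library or replicate 1 of every group left out, 568 kept both, 58 lost a call, 12 gained one and 12 changed sign. For named bins the counts were 72 of 90, with 12 gained and 6 changed in sign, and 258 of 288, with 4 lost, 10 gained and 16 changed in sign. The cause was not tested.

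With the replicate block, 7 of the 10 genes were called for LPS with SF3a1 siRNA, 8 for SF3a1 siRNA with LPS and 5 for the interaction, among 3115, 7625 and 1756 genes called in all. The block changed no other call of the 10 genes than those given with each gene. Genes with a called bin under the block numbered 129, 35, 1217 and 1102 (LPS with control siRNA, LPS with SF3a1 siRNA, SF3a1 siRNA without and with LPS), and under the DEXSeq model 99, 22, 1060 and 880. Without a filter on low counts, 2 of the 10 genes were called for SF3a1 siRNA without LPS, among 4772 in all, and with only the groups compared 1 was called for SF3a1 siRNA with LPS, among 4468. In the interaction 1 was called with RLE scaling and 1 with limma-voom, among 478 and 494, and the genes called numbered 921 with DESeq2, 930 without a filter and 1012 without replicate 1 of every group.

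The values that changed sign were all uncalled. Without a filter the Irak1 interaction was 0.011. With limma-voom the LPS effect with control siRNA was 0.014 on Irak1 bin 50, 0.56 on bin 51 and -0.057 on Myd88 bin 8, and bin 8 was at 0.018 for LPS with SF3a1 siRNA and 0.0039 for SF3a1 siRNA with LPS. With the DEXSeq model Irak1 bin 51 was at 0.40 for LPS with control siRNA. Without replicate 1 of every group Irak1 bin 51 was at 2.68 for LPS with control siRNA and -0.086 with SF3a1 siRNA, bin 45 at -0.22 for SF3a1 siRNA with LPS, Myd88 bin 8 at 0.051 and Ly96 at -0.093 for SF3a1 siRNA without LPS.

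With one library left out at a time, the genes called among the 10 ranged from 5 to 7 for LPS with control siRNA, 2 to 5 for LPS with SF3a1 siRNA, 1 to 5 and 2 to 4 for SF3a1 siRNA without and with LPS, and 0 to 2 for the interaction. All genes called ranged from 3985 to 5023, 1050 to 2005, 3881 to 5627, 4744 to 5993 and 273 to 711 in the same order. Genes with a called bin ranged from 23 to 60 for LPS with control siRNA, 7 to 13 for LPS with SF3a1 siRNA, 382 to 768 for SF3a1 siRNA without LPS and 83 to 603 with LPS, where the lowest lacked replicate 1 of control siRNA with LPS. Uncalled log2 values that crossed 0 were Ly96 (-0.15 to 0.49 and -0.40 to 0.18 for SF3a1 siRNA without and with LPS, -0.64 to 0.11 for the interaction) and the interactions of Irak1 (-0.20 to 0.13) and Irak4 (-0.11 to 0.019). For LPS with control siRNA they were Irak1 bin 50 (-0.37 to 0.21), bin 51 (-0.50 to 2.04) and Myd88 bin 8 (-0.21 to 0.26). For SF3a1 siRNA they were Myd88 bin 8 (-0.064 to 0.075 without LPS, -0.33 to 0.14 with LPS) and Irak1 bin 45 (-0.14 to 0.99 with LPS).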
